A study of Mus musculus with 5 samples.

Results

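Basal epithelial cells of the postnatal day 6 mouse penis were chosen by their UMIs (unique molecular identifiers, 1 for each captured RNA molecule) of 10 genes. A cell was a member if it held 500 to 6000 detected genes, at most 5% mitochondrial UMIs, a UMI of 4 or more of *Krt5*, *Krt14*, *Trp63*, *Cdh1*, *Perp* and *Dsp*, and UMIs of at most 1 of *Krt1*, *Krt10*, *Krtdap* and *Sbsn*. The rule selected 261 of 19633 kept penis cells, with 85 of 6806 cells in library 1, 101 of 7107 in library 2 and 75 of 5720 in library 3. These were 1.25%, 1.42% and 1.31% of the kept cells (mean 1.33% ± 0.087, SD, n = 3), and the exact 95% binomial intervals, which cover counting error only, ran together from 0.999% to 1.72%. The penis libraries held 30237 barcodes in all and the whole series 84440.

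The study set the developing penis beside the developing limbs to find genes of the baculum, the bone of the glans. Its single-cell part had 3 penis libraries from postnatal day 6, 1 forelimb library and 1 hindlimb library from embryonic day 15. All were labelled C57BL/6N, whereas the methods name C57BL/6J. They came from males per the methods, with no transgene or treatment in any of them. Per the methods the prepuce was removed, and the penises came from 3 animals of 2 litters. The labels do not tie a library to an animal, so the p-values measure the spread between these libraries, which may be in part technical. Cells were freed from all tissues with 1 and the same dissociator program.

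Whole libraries held 70554067 to 100636762 UMIs for penis and 156060382 and 162335993 for forelimb and hindlimb. The median member had 11535, 10210 and 10026 UMIs in the 3 libraries against 9891, 9345 and 8770 in the other kept cells, and the members together held 941064, 1086849 and 729379 UMIs. Library pairs shared 20 to 203 cell barcodes, and no barcode was shared between members of different libraries. No doublet caller was run. Of the 261 members, 182 held a UMI of 3 or more of 8 mesenchyme markers and 20 of 6 or more, and 4, 3, 4 and 0 held 3 or more markers of endothelium, white blood, mural cells and glia, and 38 held 3 or more red blood markers. Free RNA was read from 638 white blood cells of the same libraries (medians 7844, 8355 and 6720.5 UMIs). A cell of that class had 4 or more of 8 white blood markers and a UMI of at most 1 of the 6 epithelial genes. That limit leaves out white blood cells with more epithelial RNA, so the shares in this class may understate free epithelial RNA.

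Stratified epithelium renews itself from a single layer of basal cells that sit on a basement membrane. Basal cells build their cytoskeleton from keratins 5 and 14, depend on the transcription factor p63 (*Trp63*), hold to the basement membrane through hemidesmosomes (integrin α6β4, collagen XVII, plectin and dystonin, bound to laminin-332) and hold to each other through desmosomes. A cell that leaves the layer turns on keratins 1 and 10 and the proteins of the cornified surface. In the genital tubercle, epithelium covers the glans and lines the urethra, and epithelial signals of the Wnt, Fgf and hedgehog families meet receptors of the mesenchyme beneath.

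The promoters below are of the adhesion genes and the Wnt ligand that lead the comparison with the other penis cells, beside that of *Krt5*, a gene of the rule. They run from 250 bases before to 50 bases after the start site in RefSeq (GRCm38.p6). Capitals mark TATAAA, the letters of a TATA box, and GCCNNNGGC, a pattern known for AP-2 factors, both searched on each strand and free of overlap with each other.
Wnt3 promoter, chr11:103773925-103774224, plus strand: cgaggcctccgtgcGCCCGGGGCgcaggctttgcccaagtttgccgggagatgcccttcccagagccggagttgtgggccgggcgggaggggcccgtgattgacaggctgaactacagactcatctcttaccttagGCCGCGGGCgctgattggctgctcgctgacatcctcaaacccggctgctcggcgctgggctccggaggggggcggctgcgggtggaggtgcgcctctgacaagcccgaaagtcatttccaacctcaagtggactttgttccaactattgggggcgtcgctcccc
Fermt1 promoter, chr2:132945987-132946286, minus strand: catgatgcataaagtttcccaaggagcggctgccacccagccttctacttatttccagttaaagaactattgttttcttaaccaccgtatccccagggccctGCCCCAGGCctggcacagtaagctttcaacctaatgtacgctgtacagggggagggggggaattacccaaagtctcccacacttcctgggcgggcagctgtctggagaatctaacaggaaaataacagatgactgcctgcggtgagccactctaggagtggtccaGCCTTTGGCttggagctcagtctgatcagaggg
Col17a1 promoter, chr19:47691993-47692292, minus strand: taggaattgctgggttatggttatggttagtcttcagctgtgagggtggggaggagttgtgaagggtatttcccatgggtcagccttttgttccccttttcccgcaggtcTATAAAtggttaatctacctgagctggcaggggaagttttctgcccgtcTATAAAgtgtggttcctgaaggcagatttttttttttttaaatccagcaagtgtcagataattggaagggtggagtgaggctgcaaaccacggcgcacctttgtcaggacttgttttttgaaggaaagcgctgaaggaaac
Krt5 promoter, chr15:101712856-101713155, minus strand: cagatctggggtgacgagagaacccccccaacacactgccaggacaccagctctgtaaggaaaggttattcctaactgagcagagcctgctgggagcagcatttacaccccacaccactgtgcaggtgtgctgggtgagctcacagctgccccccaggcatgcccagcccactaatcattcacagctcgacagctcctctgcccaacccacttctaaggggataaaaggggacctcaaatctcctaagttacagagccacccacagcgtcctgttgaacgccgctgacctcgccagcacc
In *Wnt3*, GCCNNNGGC began 236 and 114 bases before the start site, in *Fermt1* 148 bases before and 17 after it, and in *Col17a1* TATAAA began 140 and 91 bases before it. The *Krt5* window held neither run of letters. Of the 8 genes named first below, 7 had a promoter in the table, of which 2 held TATAAA and 4 held GCCNNNGGC, and of 32851 promoters of this length 13.6% held the former and 16.6% the latter. These are matches of letters in a window and say nothing of what binds there. The host transcript of miR-205, *Mir205hg* (chr1:193506460-193510210), was also among those 8. The mature miRNA that its locus carries is shown with its seed, bases 2 to 8, in capitals (chr1:193507503-193507524, minus strand), and the UMIs count the host transcript and not this product.
mmu-miR-205-5p: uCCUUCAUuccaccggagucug

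The genes of the rule are given as a description, since they chose the cells. *Krt5* stood at 2049, 1606 and 1893 CPM (UMIs of a gene per 1000000 UMIs of the cells summed in a library) and *Trp63* at 437, 407 and 551. Among the members, 93.9% had a *Krt5* UMI, 96.6% *Krt14*, 83.9% *Trp63*, 89.7% each *Perp* and *Dsp*, and 39.8% *Cdh1*. *Krtdap*, a gene of the first suprabasal cells, was detected in 144 members, more than the 16, 17 and 13 with *Krt1*, *Krt10* and *Sbsn*. Members with *Krtdap* had a median of 11530 UMIs and those without it 9060. At the lower edge of the rule, 91 members with 4 of the 6 genes had a median of 3841 UMIs, and 232 cells left out with 3 of 6 had 2812.5, against 14362 in 74 members with all 6. At the upper edge, 190 members held 1 suprabasal gene, and 185 cells left out held 2, with medians of 11530 and 13795 UMIs. A further 219 cells were left out by the mitochondrial limit alone and 19 by the upper limit on genes.

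Against all other kept cells of the same libraries, most genes tested of basement membrane adhesion, cell junctions and epithelial regulation were higher in the members, and most markers of mesenchyme, vessels, white blood cells and glia were lower. Of 18373 genes tested outside the rule, 1051 were higher (5.72%) and 2185 lower (11.9%) at an adjusted p under 0.01 and a log2 fold change beyond 1 (edgeR quasi-likelihood test with the library as a block), and the median over all genes tested was -0.19. The members were picked on co-expressed genes, so these tests say how steadily the chosen cells differed across 3 libraries and are not evidence of their identity. The 4 other basal markers, *Krt15*, *Col17a1*, *Itga6* and *Itgb4*, were all higher. Of 15 differentiation genes outside the rule, 8 were higher too, among them *Lgals7*, *Fabp5*, *Sfn* and *Dmkn*, and 1 was lower, *Cnfn* (median 2.04). Across the alternatives 5 to 10 were higher and 0 to 2 lower.

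*Wnt3*, a secreted Wnt ligand, was at 62.7, 47.8 and 61.7 CPM in the members and 1.77, 1.98 and 2.52 in the other cells. The groups were far apart in every library (log2 fold change 4.89 ± 0.255, SE, adjusted p = 7.69e-10), and 34.1% of members and 0.313% of white blood cells held a UMI. *Fermt1*, encoding the integrin activator kindlin-1, was at 70.1, 79.1 and 86.4 CPM against 2.34, 2.85 and 3.46 (4.88 ± 0.194, adjusted p = 5.96e-11), with a UMI in 42.5% of members and 0.157% of white blood cells, or 13.6% and 0.0429% when cells were thinned to 2000 UMIs. *Mir205hg* was at 194, 162 and 251 CPM against 7.10, 8.25 and 7.62 (4.80 ± 0.150, adjusted p = 5.49e-12). In each of these the lowest member library was many times the highest library of other cells. The remaining genes of the 8 with the largest folds were *Tmem45a2* (log2 4.87), *Col17a1* (4.71), *Fxyd3*, a regulator of the sodium pump (4.65), *Bcl11b*, a zinc finger transcription factor of skin and T cells (4.62), and *Krt79* (4.59). *Fxyd3* was detected in 83.1% of members and 3.45% of white blood cells, whereas *Krt79*, a keratin of hair canal and duct cells, was detected in 10.3% of members and 0.784% of white blood cells.

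Of 13 genes of basement membrane adhesion, 10 were higher and none lower, with a median log2 fold change of 2.92 beside -0.19 over all genes. *Col17a1*, the transmembrane collagen of hemidesmosomes, stood at 460, 409 and 665 CPM against 17.7, 21.6 and 22.5 (log2 4.71 ± 0.122, adjusted p = 7.62e-13). *Lama3*, a chain of laminin-332, was at 182, 147 and 230 CPM against 25.2, 23.6 and 28.1 (2.95 ± 0.121). *Itga6*, an integrin shared with vessels, was at 189, 172 and 170 CPM against 83.3, 87.6 and 92.3 (1.12 ± 0.109). All 3 genes were higher in each library without overlap, *Itga6* by the smallest margin. *Col7a1*, the anchoring fibril collagen, differed by 2.92 ± 0.135. The members of the list not called were *Itgb1*, an integrin chain of nearly every cell (-0.63), *Dst* (0.69) and *Plec* (0.61).

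Cell to cell junctions were higher as well. Of 15 desmosome and adherens junction genes, 11 were higher (median 2.14), among them *Pkp1* (127 to 173 CPM against at most 12.9, log2 3.80), *Dsc3* (3.71), *Jup* (1.68) and *Ppl* (1.96). Of 15 tight junction genes, 9 were higher (median 1.96, 5 to 13 across the alternatives), among them *Epcam*, an epithelial adhesion protein, at 154, 152 and 173 CPM against 10.5, 9.50 and 9.61 (4.11 ± 0.136, adjusted p = 8.62e-12). Of 12 keratins outside the rule, 9 were higher (median 2.80). Among the 9, *Krt4*, *Krt7*, *Krt8*, *Krt18* and *Krt19* had most of their UMIs in 12 of the 261 members, split off below by their simple keratins. Those 12 held 338 UMIs of *Krt19*, against 2 in 45 members and 0 in 204. *Krt15*, a keratin of basal and stem cells, was at 3269, 2498 and 3079 CPM against 164, 168 and 162 (4.26 ± 0.0811), and *Krt17* at 204, 132 and 122 against 6.67, 5.99 and 7.78 (4.58 ± 0.180). Member libraries of both keratins varied, yet none came near the other cells. Without the 183 members that held 3 or more markers of mesenchyme, endothelium, white blood, glia or mural cells, 9 of 13 adhesion (and 1 lower), 9 of 15 desmosome, 7 of 15 tight junction and 9 of 11 keratin genes were higher. That left 26, 23 and 29 members in the libraries. Their medians were 3716.5, 4048 and 10018 UMIs, against 11535, 10210 and 10026 in all members, so the removal also changed depth in libraries 1 and 2.

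**Figure D1:**
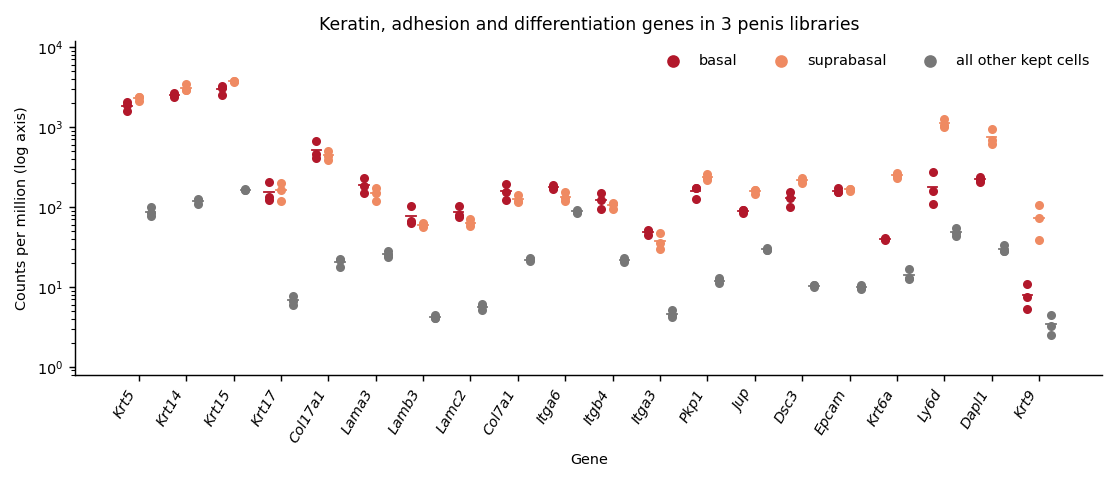
CPM (log axis) of 20 keratin, adhesion and differentiation genes in the basal members, the suprabasal cells and all other kept cells of 3 penis libraries, 1 point a library with a bar at the mean. Basal and suprabasal points lie close together for hemidesmosome genes, such as *Col17a1* at 409 to 665 and 385 to 499 CPM, and part for *Krt6a*, *Ly6d*, *Dapl1* and *Krt9*.

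Epithelial regulators followed the same direction. Of 24, 17 were higher and 1 lower (median 3.01), and 10 were higher and 2 lower without the 183 members named above. *Tfap2b*, an AP-2 factor, was at 448, 241 and 365 CPM against 14.7, 15.6 and 16.3 (4.57 ± 0.154, adjusted p = 1.07e-11). *Barx2*, a homeobox factor, was at 352, 318 and 367 CPM against 28.1, 29.5 and 26.3 (3.73 ± 0.108), and *Klf5* at 282, 246 and 322 against 38.4, 40.2 and 40.3 (2.93 ± 0.109). The 1 regulator lower was *Klf4*, a factor of the skin barrier that dissociation also induces, at 190, 166 and 159 CPM against 494, 485 and 524 (-1.44 ± 0.0941). Of 14 immediate early and stress genes, 3 were lower, *Fos* (-1.30), *Egr1* (-1.58) and *Btg2* (-1.11), with 1 to 8 lower across the alternatives, and the summed level of that list was 2184 to 4192 CPM in the members and 5963 to 6131 in the other cells. The part of handling in these levels was not tested.

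Of 24 Wnt genes, 11 were higher and 7 lower (median -0.39). *Wnt4* was at 283, 257 and 269 CPM against 27.2, 26.9 and 26.0 (3.44 ± 0.107, adjusted p = 5.33e-12), and 7 further ligands, *Wnt3*, *Wnt3a*, *Wnt6*, *Wnt7a*, *Wnt7b*, *Wnt10a* and *Wnt10b*, were higher too. The ligands *Wnt5a* (35.1, 34.0 and 15.1 CPM against 151 to 153, log2 -2.30), *Wnt11* (-2.63) and *Wnt16* (-2.27) were lower. The antagonists *Sfrp2* (65.9, 71.8 and 16.5 CPM against 543, 506 and 502) and *Dkk2* were lower (-3.21 and -3.50), while *Sostdc1*, another antagonist, was higher (2.17 ± 0.127). Of 13 Fgf genes, 3 were higher and 6 lower. The receptor *Fgfr2* stood at 646, 489 and 724 CPM against 240, 235 and 252 (1.44 ± 0.0913), its ligand *Fgf10* at 2.13, 8.28 and 8.23 against 50.3, 50.2 and 58.1 (-2.98 ± 0.288), and *Fgfr1* was lower (-1.32). The member and other libraries overlapped in none of these 3 genes.

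Of 11 EGF family genes, 6 were higher (3 to 8 across the alternatives) and 1 lower. The receptor *Egfr* was at 217, 192 and 237 CPM against 91.8, 94.2 and 106 (1.25 ± 0.101), *Erbb2* differed by 1.40, and the ligand *Nrg1* was lower (-1.25, and -0.72 with no call without library 1). The ligand *Areg* was at 51.0, 22.1 and 1.37 CPM (3.05 ± 0.484), a spread across libraries of more than an order of magnitude, and only 3.45% of members and 4.08% of white blood cells held a UMI. Of 14 Notch genes, 2 were higher, *Jag2*, a ligand (3.62 ± 0.175), and *Notch1* (1.01 ± 0.128, and 0.84 with no call without library 3), and 5 were lower, among them *Notch2* (-1.15) and *Notch3* (-1.48). Of 15 BMP and TGF-β genes, 2 were higher and 7 lower. *Nog*, a BMP antagonist, was at 58.4, 46.0 and 72.7 CPM against 4.55, 5.19 and 5.03 (3.66 ± 0.214), the other higher gene, *Tgfa*, is a ligand of the EGF family that both lists hold, and the lower genes included *Fst* (-2.97), *Tgfb2* (-2.81), *Tgfbr1* (-1.11) and *Bmp4* (-1.80). Of 10 hedgehog genes, 0 were higher and 1 was lower at the adjusted threshold, *Gli1* (-2.16), whose call was lost without library 3 and by DESeq2. *Shh* stood at 1.06, 0.920 and 4.11 CPM in the members, with a UMI in 1.53% of them.

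Of 11 steroid genes, 2 were higher and 2 lower. The 5-alpha reductases, which make dihydrotestosterone, went apart, with *Srd5a1* at 28.7, 21.2 and 38.4 CPM against 8.81, 8.44 and 7.56 (1.89 ± 0.255) and *Srd5a2* at 2.13, 3.68 and 8.23 against 65.8, 68.2 and 63.3 (-3.81 ± 0.292, adjusted p = 5.57e-08). Member and other libraries did not overlap for either enzyme. *Hsd17b12* was higher (1.33) and *Esr1*, an estrogen receptor, lower (-1.03, and -0.90 with no call without library 1).

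Of 17 homeobox and T-box genes of position, 2 were higher, *Hoxa9* (139, 130 and 152 CPM against 51.0, 48.6 and 53.6, log2 1.56 ± 0.114) and *Hoxd9* (2.29 ± 0.219), and 11 were lower, with a list median of -2.33. *Tbx4*, a factor of hindlimb and genital mesenchyme, was lower (-2.81), as were *Hoxd13* (-2.60) and *Hoxa13* (-2.57), at means of 9.82 and 5.86 CPM in the members. *Isl1*, a homeobox factor of the genital tubercle, was at 158, 158 and 191 CPM in the members, slightly below the 196 to 201 of the other cells, with no call and a UMI in 62.1% of members (-0.13 ± 0.0993, adjusted p = 0.325), and it made up nearly all of the summed Merkel cell markers (161 to 193 CPM). Of 10 embryonic timing genes, 4 were higher, among them *Igf2bp3* (2.15) and *Hmga2* (2.34), and *Igf2* (-1.87) and *Dlk1* (-2.68) were lower. Of 15 S phase genes 0 and of 15 G2/M genes 1, *Cenpe*, were higher at the adjusted threshold, and *Cenpe* (109, 22.1 and 65.8 CPM, log2 1.46) was lost without library 1, where the fold was 0.78.

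The genes lowest in the members included known genes of neutrophils and fibroblasts. *S100a8* and *S100a9*, neutrophil proteins, had 1 and 3 UMIs in all members together, so that the other cells were 259 times (95% counting interval 46.4 to 10211) and 92.0 times (31.5 to 446) as high. *Cd74*, *Myoc*, *Col24a1*, *Plac8* and *Dpt* were lower as well, at -5.09 to -4.20. Of the fixed cell type markers, 8 of 8 mesenchyme, 8 of 8 endothelial, 7 of 8 white blood, 7 of 7 mural and 5 of 6 glial genes were lower, and the sixth glial gene, *Erbb3*, also a receptor of epithelium, was higher (1.24). With 3 of the 6 epithelial genes required in place of 4, edgeR called 0 white blood and 0 glial markers lower. The summed mesenchyme markers were 1999, 4491 and 1584 CPM in the members against 22456 to 22796 in the other cells, and the summed red blood markers, of which 0 of 6 were called, 4757, 10198 and 6296 against 5453 to 7652. Library 2 had the highest sum of both. Of 18 MHC and immune genes, 4 were lower (1 to 7 across the alternatives), including *B2m* (-2.07) and *H2-K1* (-1.14), and *Cxcl14*, an epidermal chemokine, was higher (1.67 ± 0.118).

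**Figure D2:**
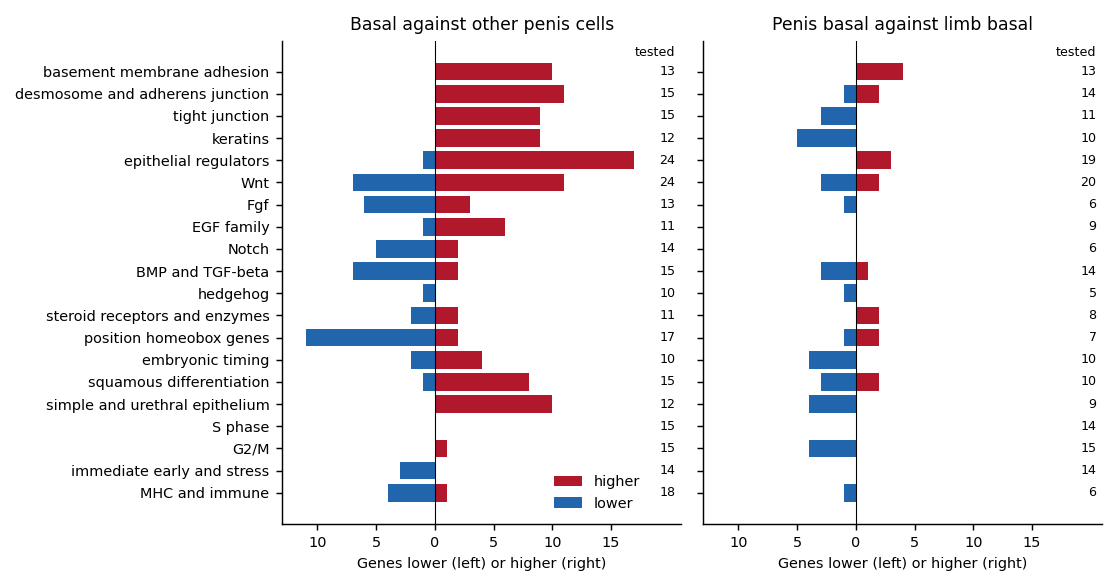
Number of genes of each list higher (right, red) or lower (left, blue) in the basal members, against the other penis cells (left panel) and against limb basal cells (right panel), with the number tested at the right edge. Adhesion, junction and regulator genes lie to the right on the left panel, 17 of 24 regulators among them, and homeobox genes to the left, 11 of 17.

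Cells that passed the same epithelial rule but held UMIs of 2 or more of the 4 suprabasal genes were the other epithelial set compared within the organ (122, 143 and 97 cells, medians 15754, 16510 and 14243 UMIs). The members differed from them in few genes, and 4 of those lower in the members belonged to the fixed list of differentiation genes. Of 10082 genes tested, 22 were higher (0.218%) and 25 lower (0.248%). The split was made on differentiation genes, so that the direction of that group is in part fixed by it.

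Of 22 further differentiation genes in the list, 12 had enough UMIs to be tested here, 4 were lower and none higher, with a median of -1.47 beside -0.0015 over all genes and 1 to 7 lower across the alternatives. *Fabp5*, a fatty acid binding protein, was at 1037, 946 and 740 CPM in the members and 2447, 2027 and 2087 in the suprabasal cells (-1.35 ± 0.0811, adjusted p = 4.59e-06), and *Dmkn*, a secreted keratinocyte protein, at 63.8, 118 and 49.4 against 252, 190 and 248 (-1.62 ± 0.230). *Krt6a*, a keratin of nail, tongue and injured skin, was at 40.4, 39.6 and 38.4 CPM against 231, 244 and 267 (-2.71 ± 0.122, adjusted p = 4.97e-07). The 3 member libraries were all below the 3 suprabasal libraries in each of these genes.

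*Ly6d*, a surface protein of stratified epithelium, was at 107, 273 and 159 CPM against 1241, 1011 and 1074 (-2.75 ± 0.224), and *Dapl1* at 205, 220 and 239 against 695, 605 and 938 (-1.80 ± 0.108). *Krt9*, the keratin of palm and sole epidermis, was at 7.88 ± 2.86 CPM (SD, n = 3) against 106, 38.4 and 72.6 (-3.23 ± 0.298). The desmosomal cadherin *Dsc2* (-2.28), *Calm4* (-2.08) and *Them5* (-1.87) were lower too, and *Ehf*, an epithelial ETS factor, by less (-1.06). The calls of *Ehf* and of *Krt2* (-2.70) were lost in each of the 3 fits that left out 1 library.

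None of the 13 basement membrane adhesion genes (median 0.24) and none of the 4 basal markers outside the rule were called between the 2 sets. The sets were parted by the number of suprabasal genes detected alone. Of the members 190 held 1 such gene, and 185 of the suprabasal cells held 2. Whether the sets are 2 layers of the tissue was not tested. *Col17a1* was at 460, 409 and 665 CPM in the members and 385, 436 and 499 in the suprabasal cells, which overlap (0.12 ± 0.105, adjusted p = 0.658), and *Itga6* at 189, 172 and 170 against 129, 118 and 152, with every member library above (0.36 ± 0.111, adjusted p = 0.127). *Notch3* differed by -1.17 without passing the threshold (adjusted p = 0.016). The 8 mesenchyme markers, of which none was called, had a median of 0.85, and their sum was 1999, 4491 and 1584 CPM in the members and 1071, 1903 and 1777 in the suprabasal cells. The part of these transcripts in the differences between the 2 sets was not tested.

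Of the genes higher than in suprabasal cells, some rested on few cells. *Mal*, a membrane protein of polarized epithelia, had 94, 74 and 53 UMIs in 3, 4 and 3 members of the libraries, and a single cell gave 91, 62 and 32 of them (3.86 ± 0.517, adjusted p = 0.0028). *Krt4*, a keratin of moist stratified epithelium, came from 4, 11 and 5 members, with 94.3%, 64.1% and 59.3% of its UMIs in 1 cell (1.92 ± 0.202). *Krt8* (1.83) and *Krt79* (1.83) were the other keratins called. *Ogn*, *Zfhx4*, *Col6a3*, *Hmcn1* and *Hpse2*, all higher (1.06 to 1.67), are genes that the remaining penis cells held at higher levels than the members did, for example *Hpse2* at 1194 to 1360 CPM against 98.7 to 216. Without library 2, 1 gene was higher than in suprabasal cells, and 0 were, by edgeR, of 5071 genes tested when cells with 3 or more markers of another type were left out of both groups, which left 23 to 29 members and 29 to 38 suprabasal cells a library.

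A small group of members differed from the rest. Split by UMIs of the simple keratins *Krt7*, *Krt8*, *Krt18* and *Krt19*, which line ducts and the urethra, 12 members held 2 or more (3, 5 and 4 in the libraries, 4.60% of members, median 15036 UMIs), 45 held 1 and 204 held none (median 9422 UMIs). With under 20 cells in a library, the groups were not tested, and the values are sums over the cells with 95% Poisson intervals for counting error. *Psca*, a surface protein of bladder and urethral epithelium, was at 4878 CPM (4587 to 5183) in the 12 cells, 6 of which held a UMI, and 1.99 CPM (0.543 to 5.10) in the 204. *Krt4* was at 2080 CPM (1891 to 2282) in the former, 8 of which held a UMI, and 6.47 (3.45 to 11.1) in the latter. By library, *Psca* was at 6282, 5191 and 2490 CPM in the 3, 5 and 4 cells.

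*Mal* (1007 and 1.99 CPM), *Ly6d* (2024 and 31.9), the urothelial plaque genes *Upk1a* (364 and 1.49), *Upk1b* (420 and 0.498) and *Upk2* (103 and 0), *Foxa1*, a factor of endodermal epithelium (83.9 and 0), and *Cldn4* (210 and 1.49) went the same way. Of the 12 cells, *Mal*, *Ly6d* and *Upk1a* were found in 6 each, *Upk1b* and *Foxa1* in 7 each, *Upk2* in 5 and *Cldn4* in 9, so that these sums come from a part of the group. The basal keratins went the other way, with *Krt5* at 667 CPM (562 to 786) in the 12 cells and 1807 (1749 to 1867) in the 204, and *Lgals7*, a galectin of stratified epithelium, at 867 (747 to 1001) and 3204 (3126 to 3283). *Krt15* was higher in the 12 (6025 CPM against 2460), and *Col17a1* was at 243 CPM against 513. The 45 cells with 1 simple keratin held 0 UMIs of *Psca*, 24.3 CPM of *Krt4* (13.0 to 41.6), found in 4 of them, and 2399 CPM of *Krt5* (2269 to 2534). By library, *Krt5* was at 2798, 2414 and 1940 CPM in the 45 cells and 1939, 1555 and 2018 in the 204. Library 3 thus went the other way from libraries 1 and 2. Over all members, 10 of 12 simple and urethral genes were higher than in the other penis cells (median 2.90). With 5 or more of the 6 epithelial genes required 3 were higher, and *Psca*, at 1.31 among all members, stood at -0.31.

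Members also differed by *Krtdap*, 1 of the genes of the rule, and these values too are a description. In the 144 members with a *Krtdap* UMI, *Krt5* was at 2310 CPM, *Col17a1* at 613 and *Dapl1* at 272, and in the 117 without it at 1125, 318 and 142. *Psca* was at 1.21 CPM in the former and 945 in the latter. *Krt5* and *Col17a1* were thus higher in the cells that also held the suprabasal gene, whereas *Krt15*, at 2952 and 2859 CPM, was higher in them in library 1 and lower in libraries 2 and 3.

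**Figure D3:**
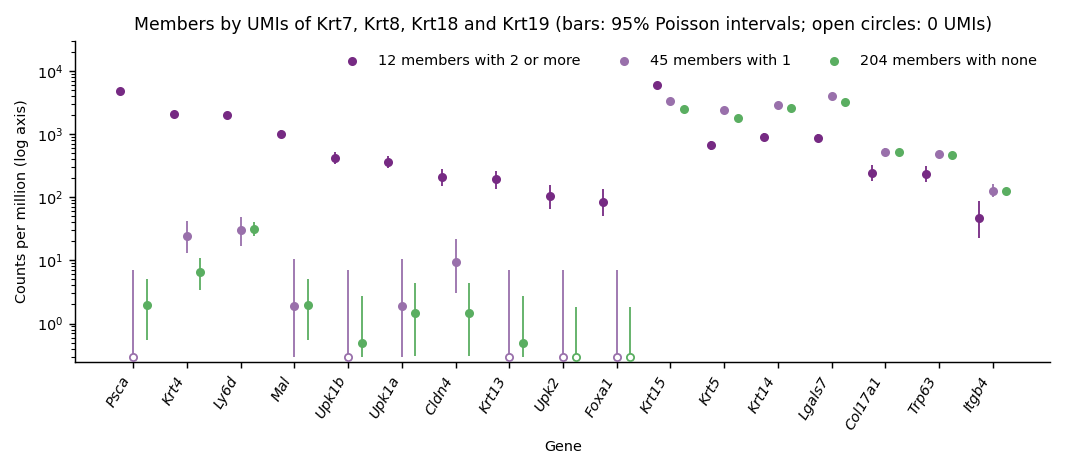
CPM (log axis) of 17 genes in members with 2 or more (12 cells), 1 (45 cells) or none (204 cells) of the simple keratins, summed over 3 penis libraries, with 95% Poisson intervals as bars and open circles at 0 UMIs. *Psca*, *Krt4*, *Ly6d* and the uroplakins have high sums in the 12 cells alone, and *Krt5*, *Krt14* and *Lgals7* lower in them than in the other members.

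The same rule found 64 forelimb and 57 hindlimb cells in the limbs (medians 5805 and 6442 UMIs). They came from cells kept by wider limits (at least 100 detected genes, at most 9000 in forelimb and 9500 in hindlimb, and 10% mitochondrial UMIs). The numbers for genes are the study's, whose methods state them as reads per cell. The median mitochondrial share of the chosen limb cells was 5.49% in forelimb and 5.32% in hindlimb, above the limit of 5% put on penis cells. In the penis members it was 3.05%, 2.81% and 3.43%. Penis basal cells held more transcripts of *Isl1*, *Hoxd8* and *Hoxd9*, and less of 5 of 10 keratins, 4 of 10 embryonic timing genes and 4 of 15 G2/M genes, each of which counts fell to 0 under at least 1 alternative. Of 9142 genes tested with 3 against 2 libraries, 278 were higher in the penis (3.04%) and 180 lower (1.97%). When limb cells met the penis limits, 121 of the 278 and 63 of the 180 were still called. The smaller limb library then held 22 cells. Per the methods forelimbs and hindlimbs were taken from one set of male embryos, so that the limb libraries may share animals and the p-values may be too small. Organ, age and library cannot be told apart here, since the penis was taken after birth and the limbs before. The summed mesenchyme markers were 2903 and 1793 CPM in forelimb and hindlimb basal cells, within the range of the penis members.

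*Isl1* was at 158, 158 and 191 CPM against 2.12 and 0, a ratio of 150 (95% counting interval 26.8 to 5939), with 1 UMI in 121 limb cells. The other penis cells held it at a similar level, and the part of free RNA in the penis values was not tested. *Esr1* was higher in the penis too (32.9, 47.8 and 38.4 CPM against 8.48 and 11.7, log2 2.06 ± 0.403), and its call was lost without either limb library, without penis library 2 or 3 and by DESeq2.

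*Gria4*, a glutamate receptor subunit, was at 606, 542 and 655 CPM against 0 and 9.35, in 58.6% of members and 5.33% of white blood cells (log2 7.09 ± 0.395, adjusted p = 1.88e-06). In limb basal cells *Dapl1*, *Tmem45a2*, *Slc5a7* (a choline transporter), *Fgf14* and *Hoxd8* had 0 UMIs, which puts the penis at least 65.9-fold, 24.9-fold, 21.9-fold, 15.1-fold and 14.9-fold higher with 3 UMIs over the group as the floor. *Dapl1* stood at 205, 220 and 239 CPM and *Hoxd8* at 45.7, 49.7 and 54.8. *Hoxd9* was higher as well (52.1, 28.5 and 42.5 CPM against 4.24 and 0), and *Hoxa9*, at 139, 130 and 152 CPM, was at 4.24 in forelimb and 70.1 in hindlimb, with no call (adjusted p = 0.0221). *Hoxc13*, a factor of hair and nail, was lower (1 UMI in all members against 38.2 and 30.4 CPM). Of 7 position genes of the fixed list tested here, 2 were thus higher, *Isl1* and *Hoxd9*, and 1 lower, with 1 to 4 higher and 0 to 4 lower across the alternatives.

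The genes most strongly lower were led by *Cnfn*, a protein of the cornified envelope, with 0 UMIs in 261 members against 134 and 409 CPM in the limbs, at least 243-fold. In the limbs these UMIs lay in 6 and 5 cells, and a single cell gave 54 of 63 in forelimb and 93 of 175 in hindlimb. *Kcnh7*, a potassium channel, had 1 UMI in the members against 437 and 641 CPM, so that the limbs were 1472 times as high (95% counting interval 263 to 58248), and *Slc2a3*, a glucose transporter, was at 3.19, 4.60 and 4.11 against 286 and 302 (-6.06 ± 0.242, adjusted p = 1.78e-07). Forelimb and hindlimb were close for *Slc2a3* and further apart for *Cnfn*. *Mybpc1*, *Col19a1* and *Serpinb11* had 2, 3 and 2 UMIs in the members and 74.2 to 206 CPM in the limbs. *Cma1* and *Cpa3*, proteases of mast cells, were also called lower, and 1 forelimb cell held 170 of 179 and 119 of 126 forelimb UMIs, beside 7 and 6 UMIs in hindlimb. Its part in the calls was not tested.

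**Figure D4:**
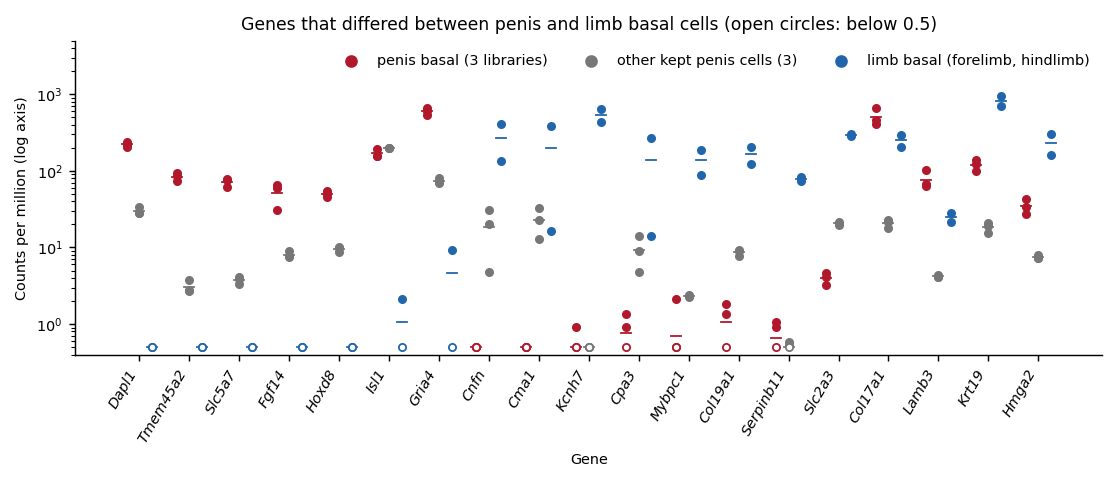
CPM (log axis) of 19 genes in penis basal cells (3 libraries), other kept penis cells (3) and limb basal cells (forelimb and hindlimb), with open circles below 0.5 CPM. *Isl1* lies close together in both penis groups and at 2.12 CPM or 0 in limb basal cells, whereas *Kcnh7* and *Slc2a3* lie high in limb basal cells.

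By list, 4 of 13 basement membrane adhesion genes were higher in the penis, *Col17a1* (1.08 ± 0.222), *Lama3* (1.09), *Col7a1* (1.80) and *Lamb3* (1.70), with 0 to 6 of 13 called across the alternatives. *Lamb3* was at 66.9, 62.6 and 101 CPM against 21.2 and 28.1, and *Col7a1* at 155, 121 and 193 against 53.0 and 39.7, with no overlap. The desmosome genes *Pkp1* (1.26) and *Dsc3* (1.86) were higher and *Ppl* lower (-1.14, and 0.52 with 5 or more of the 6 epithelial genes required) of 14 tested, with 0 to 2 higher and 0 to 1 lower across the alternatives. The regulators *Barx2* (352, 318 and 367 CPM against 112 and 101, 1.77 ± 0.161), *Klf5* (1.35) and *Ehf* (1 UMI in limb basal cells, a ratio of 43.7 with a 95% counting interval of 7.71 to 1739) were higher of 19, with 1 to 4 across the alternatives. Of 10 differentiation genes tested, 2 were higher, *Lgals7* and *Calml3*, and 3 lower, *Cnfn*, *Spink5* and *Krt78* (median -0.92). Across the alternatives 1 to 2 were higher and 1 to 4 lower. *Lgals7* was at 3478, 2958 and 3088 CPM against 833 and 680 (2.14 ± 0.129, adjusted p = 3.5e-06).

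Of 10 keratins, 5 were lower in the penis and none higher, with 0 to 7 lower across the alternatives. *Krt19*, a simple keratin, was at 124, 138 and 100 CPM against 696 and 945 (-2.67 ± 0.180, adjusted p = 6.87e-06), *Krt4* at 112, 200 and 206 against 619 and 1113 (-2.25 ± 0.268), and *Krt6a*, *Krt18* and *Krt8* were lower by 1.89 to 2.31 on the log2 scale. When limb cells met the penis limits, *Krt19* differed by -1.62 and *Krt4* by -1.44 and neither was called. In the limbs too a few cells carried *Krt4*, with UMIs in 6 forelimb and 9 hindlimb cells. The tight junction genes *Epcam* (-1.16), *Cldn3* and *Cldn1* (3 lower of 11, with 0 to 6 across the alternatives) and the chemokine *Cxcl14* (363, 293 and 502 CPM against 1546 and 1545, -1.94 ± 0.174) were also lower.

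Of 20 Wnt genes, *Wnt10a* (1.58) and *Sfrp1* (2.69) were higher and *Lef1*, *Wnt6* and *Wnt16* lower, with 0 to 4 higher and 1 to 6 lower across the alternatives. *Lef1*, a transcription factor of the Wnt response, was at 11.7, 0 and 5.48 CPM against 248 and 281 (-5.47 ± 0.449, adjusted p = 2.6e-05), and *Wnt6* at 101, 72.7 and 106 against 223 and 255 (-1.29 ± 0.180). *Nog* was at 58.4, 46.0 and 72.7 CPM against 4.24 and 4.68 (3.73 ± 0.449, adjusted p = 0.0003), the 1 of 14 BMP and TGF-β genes higher, with *Bmpr1b*, *Tgfb2* and *Bmp7* lower. Across the alternatives 0 to 1 of the 14 were higher and 0 to 4 lower, and *Bmpr1b* stood at 0.12 when limb cells met the penis limits. *Fgfbp1* (-2.04) and *Gli2* (-1.54) were lower. Of 10 embryonic timing genes, 4 were lower (0 to 5 across the alternatives), *Hmga2* at 43.6, 34.0 and 27.4 CPM against 159 and 306 (-2.62 ± 0.281), *Igf2bp1* (-2.35), *Igf2bp2* (-1.55) and *Igf2* (-1.85), whose call was lost without the forelimb (-1.15).

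Whether a gene's contrast between basal and other cells differed between the organs was tested over all 5 libraries, in a fit added after the values above were known and sharing the same basal cells. Of 17810 genes, 227 had a contrast further to the basal side in the penis (1.27%) and 242 further to it in the limbs (1.36%). *Gria4* was 4.81 ± 0.405 (log2, adjusted p = 7.87e-09) further to the basal side in the penis, and *Nog* 5.00 ± 0.540. The limb side of *Gria4* rests on 4 UMIs in 3 hindlimb basal cells and 0 in forelimb. By list, 6 of 10 embryonic timing genes lay further to the basal side in the penis and none in the limbs (median 1.55 beside 0.07 over all genes, 4 to 7 across the alternatives), although 4 of the 10 were lower in penis than in limb basal cells. The red blood markers moved the same way, 5 of 6 further to the basal side in the penis (median 4.20), and their part in the other values was not tested. Of 13 basement membrane adhesion genes 2 lay further to it in the penis and 3 in the limbs (median -0.24, 0 to 2 and 0 to 3 across the alternatives), and of the 4 basal markers outside the rule none and 3 (median -1.25, 1 to 3 in the limbs). Against limb basal cells directly, those 4 markers had a median of 0.61, with 1 called higher. Suprabasal cells, which count among the other cells, were 1.79%, 2.01% and 1.70% of kept penis cells. In forelimb and hindlimb they were 0.174% and 0.251%, and the part of this difference in the contrasts was not tested. *Slc2a3* (-6.09 ± 0.333) and *Lef1* (-4.50 ± 0.426) were further to the basal side in the limbs. *Isl1* gave no call (adjusted p = 0.971). With 1 UMI of it in limb basal cells, the test cannot decide whether its contrast differed, and no size is given.

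Division was compared through *Mki67*, a protein of cycling cells, as the share of cells with a UMI at 1 depth. Thinned to 2000 UMIs, 9.15%, 7.33% and 7.94% of penis basal cells held one, against 21.3% in forelimb and 24.7% in hindlimb basal cells. The share was 6.90% to 10.7% in penis suprabasal cells, which spans that of the basal cells, 4.79% to 5.33% in other penis cells, and 13.1% and 12.8% in other forelimb and hindlimb cells, so that basal and other cells were both lower in the penis than in the limbs. The penis basal libraries lay above the other penis cells, and their difference of means from limb basal cells was -14.9 percentage points (8.14% ± 0.926 SD, n = 3, against 23.0% ± 2.40, n = 2; exact permutation test, two-sided, p = 0.1, the smallest that 10 splits allow). At that depth 8.25% of white blood cells, a class that also divides, held a UMI. As a level, *Mki67* was at 102, 51.5 and 106 CPM in penis and 144 and 220 in limb basal cells, with no call (-1.02 ± 0.278, adjusted p = 0.0367). At 4000 UMIs the means were 13.2% and 38.4%, and as sequenced 16.5% and 43.9%. Of 15 G2/M genes, 4 were lower than in limb basal cells, *Ube2c* (105, 41.4 and 28.8 CPM against 214 and 220, -1.79 ± 0.377), *Birc5* (-2.01), *Kif11* (-1.97) and *Nusap1* (-1.51), with 0 to 8 lower across the alternatives, and of 14 S phase genes 0 were called by edgeR.

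**Figure D5:**
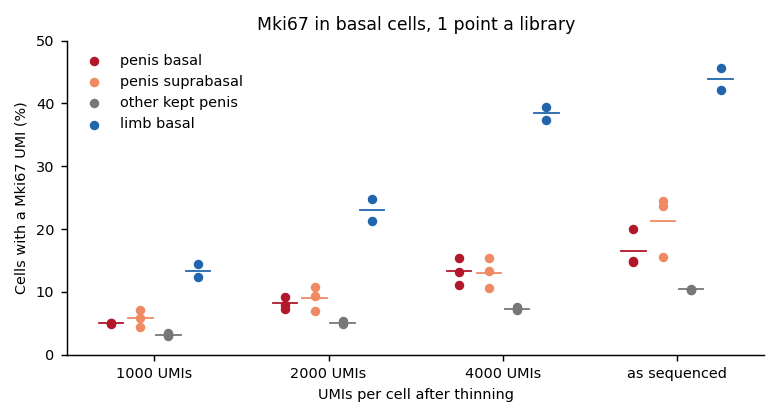
Share of cells with a *Mki67* UMI after thinning to 1000, 2000 or 4000 UMIs a cell and as sequenced, 1 point a library with a bar at the mean, for penis basal, penis suprabasal, other kept penis and limb basal cells. At each depth the limb basal points lie above all penis points, 21.3% and 24.7% against 7.33% to 9.15% for penis basal cells at 2000 UMIs.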

How the data were processed

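Single-cell RNA of 3 penis, 1 forelimb and 1 hindlimb libraries (10x 3' v3.1) was analysed. The authors aligned and counted reads with Cell Ranger 7.0.0 against mm10 (submitters' processing notes), and what they deposited are unnormalized UMI counts, 1 value for each gene in each barcode. Whether introns were counted is not given in the sources used here. Cells were kept by limits on detected genes and mitochondrial UMIs. The numbers are those of the authors' methods, which state the former as reads per cell and not as detected genes. The authors' limit of 0.8 on log10 genes per log10 UMI was applied only as an alternative. UMI counts of each cell set were summed per library. Comparisons used edgeR 4.0.16 (TMM, filterByExpr, quasi-likelihood test, Benjamini-Hochberg adjustment over all tested genes outside the 10 of the rule). Library was a block within the penis, where both sums of a library come from the same tissue. Genes were called at an adjusted p under 0.01 and a log2 fold change beyond 1. The SE given with a fold was derived from the test. It is the absolute log2 fold change divided by the square root of the F statistic. Alternatives were DESeq2 1.42.0, RLE size factors, other filters, other rule limits, removal of cells with markers of other types, and leaving out each library. In each comparison the 8 called genes with the largest and the 8 with the lowest fold are named (mean of at least 50 CPM in the higher group, every library the same way), apart from 2 genes not reported here, besides members of 30 lists. Members and lists were chosen with earlier results of these data known. On simulated data with changes of 2 on the log2 scale, edgeR recovered 70% in the comparison with other penis cells (18104 genes), 100% with suprabasal cells (10113), 96% with limb basal cells (8943) and 45% for the difference between organs (18247). The changed genes were drawn from those with more UMIs, and all genes of a comparison were given the same spread. Genes carried by few cells were thus not simulated.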

Additional observations from a re-analysis of the deposited data

Results flagged for a closer look

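Of 15 genes named for their fold between penis and limb basal cells, the contrast between basal and other cells differed between the organs in 10, in an interaction test over 5 libraries that called 227 (1.27%) and 242 (1.36%) of 17810 genes. The test used the same basal cells that chose the 15, so it is not independent of that choice. Further to the basal side in the penis were *Gria4* (log2 difference 4.81), *Slc5a7* (adjusted p = 0.00186), *Fgf14* (adjusted p = 1.76e-06) and *Hoxd8* (adjusted p = 1.39e-05), and for the last 3 no size is given because limb basal cells had 0 UMIs. Further to the basal side in the limbs were *Slc2a3* (-6.09), *Kcnh7* (adjusted p = 8e-05), *Col19a1* (adjusted p = 1.56e-07), *Serpinb11* (adjusted p = 0.00581), *Mybpc1* (adjusted p = 0.00209) and *Cnfn* (adjusted p = 3.93e-09), and for the last 5 no size is given because penis basal cells held 0 to 3 UMIs of each. Of these 10 genes, 6 lost the call under at least 1 alternative. In limb basal cells *Gria4* had 4 UMIs, in 3 hindlimb cells. The limb UMIs of *Cnfn* lay in 6 forelimb and 5 hindlimb cells, and a single cell gave 54 of 63 and 93 of 175. The 5 named by the rule for the limb comparison without a call here were *Isl1*, *Dapl1*, *Tmem45a2*, *Cma1* and *Cpa3*.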

How the results depend on the processing

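Calls against other penis cells were the most stable, with 19 of 84 genes followed losing the call at least once, against 16 of 21 in the suprabasal, 42 of 59 in the limb and 6 of 10 in the between-organ comparison. Direction turned in *Psca* against other penis cells (-0.31) and *Ppl* against limb (0.52), both with 5 or more of 6 epithelial genes required, and in *Bmpr1b* against limb with the penis limits for limb cells (0.12). Without the replicate block, in which a library pairs its own 2 sums, 1199 genes were higher and 2511 lower than in other penis cells, and 10 higher and 18 lower than in suprabasal cells. The penis and limb libraries share no animal, so no pairing exists between them. Without cells with 3 or more markers of another type, counts of genes higher and lower were 590 and 1736 against other penis cells, 0 and 14 against suprabasal, 68 and 20 against limb and 144 and 122 between organs, with fewer cells and genes tested. Without cells with 6 mesenchyme or 3 other markers, chosen after seeing the data, 386 were higher between organs. With 3 of 6 epithelial genes 1445 were lower than other penis cells, 285 higher and 45 lower than suprabasal cells and 125 lower between organs, and with 5 of 6, 8 were higher than suprabasal cells. DESeq2 gave 7 and 14 against suprabasal cells. With no filter on low counts these were 116 and 55, and 517 and 387 against limb. With the penis limits for limb cells 146 and 112 differed from limb. Leaving out 1 library gave 1 to 12 higher and 9 to 13 lower against suprabasal cells, 113 to 293 and 73 to 207 against limb, and 114 to 271 and 98 to 353 between organs. Without a limb library that arm has 1 sample, whose spread is taken from the penis libraries. The share of members, 1.33% of kept cells, was 2.51% with 3 of 6 and 0.872% with 5 of 6 epithelial genes, 0.359% with none of the 4 suprabasal genes, 1.80% with a mitochondrial limit of 10%, and 0.404% and 1.20% without cells with markers of other types. The simple keratin comparison, and the other comparisons with none of the 4 suprabasal genes, were not run because a library held under 20 such cells. The cause of these changes was not tested. Depth limits genes under about 3 UMIs in the members' sums.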
